A study of Mus musculus with 12 samples.

Results

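The mitochondrial ribosomal protein genes were described here across sorted mouse hepatocytes of different DNA content and age. They were chosen by name alone, as the protein-coding genes whose symbol starts with Mrpl or Mrps followed by a number and at most 1 letter, and 78 of the 21811 protein-coding genes in the files matched. Of the 78 genes, 51 encode proteins of the large subunit and 26 proteins of the small subunit. Mrps18a and Mrps30 carry small-subunit names but belong to the large subunit. Mrps36 was counted with neither, since its product is now known as a component of the 2-oxoglutarate dehydrogenase complex. By descent, 48 of the proteins have a bacterial homologue and 29 are specific to mitochondria.

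The mitochondrial ribosome sits in the matrix of mitochondria and translates the few messages that mitochondrial DNA still encodes, all of them core subunits of the oxidative phosphorylation complexes. Its RNAs come from mitochondrial DNA, whereas every protein in it is encoded in the nucleus, made in the cytosol and imported, so both genomes have to supply parts of one particle. Hepatocytes are rich in mitochondria, and many of them become polyploid after weaning, by failed cytokinesis or endoreplication, so that diploid and polyploid hepatocytes lie side by side in the adult liver.

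The study sorted hepatocytes of C57BL/6 mice by Hoechst staining of DNA and by a reporter that is not named in the sources used here, and compared a diploid and a polyploid fraction of the same animals at 3 months (young) and 27 months (aged). Each combination of age and fraction held 3 libraries, and 3 mice of each age gave a library of each fraction. The design thus asked how ploidy and age each relate to the hepatocyte transcriptome. The labels give 1 polyploid fraction with no ploidy class, the libraries are bulk samples made with a low-input kit for full-length complementary DNA, and no treatment is named.

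The libraries held 17413153 to 26760570 counts, and levels are given as CPM, a gene's counts scaled to a common library total, of which 1 CPM stood for 17.4 to 26.8 counts. CPM were scaled by trimmed means of M-values (TMM), a factor per library that ranged from 0.837 to 1.69. The label of the cells was checked against 30 hepatocyte genes, such as those for albumin and apolipoproteins, whose summed level lay between 141400 and 217400 CPM in 11 libraries but was 29050 CPM in aged diploid replicate 2. Markers of other liver cells moved with the groups. The sum over 18 macrophage genes was 1283 to 24940 CPM in aged diploid, 718 to 882 CPM in young diploid, 65.2 to 254 CPM in young polyploid and 38.4 to 198 CPM in aged polyploid libraries, and it was highest in aged diploid replicate 2. The sum over 18 endothelial genes was 266 to 3823 CPM in aged diploid libraries and at most 177 CPM in the others, and that over 15 stellate cell and fibroblast genes was 212 to 3097 CPM there and at most 55.5 CPM in the others, with Col1a1 at 0 in all young polyploid and all aged polyploid libraries. By edgeR, 17 of 18 macrophage, 17 of 18 endothelial and 10 of 13 tested stellate cell genes were lower in polyploid cells over both ages, and 5, 15 and 9 of them were higher in aged than in young diploid cells. The part of these cells in the results below was not tested. In bulk samples of this kind, a smaller share of hepatocytes and less RNA of a gene per hepatocyte cannot be told apart, and aged diploid values are therefore given with and without replicates 1 and 2.

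The 78 genes lie on 17 chromosomes, with 11 of them on chromosome 11. Their promoters often face another gene. A protein-coding gene on the opposite strand starts within 1000 bases upstream of 18 of the 78 genes (23.1%), against 6.79% of all protein-coding genes. Mrps12, which encodes a protein of the decoding centre, starts 172 bases from Sars2, the mitochondrial seryl-tRNA synthetase gene, and Mrpl32 starts 75 bases from Psma2, a proteasome subunit gene. Mrps34 starts 29 bases from Eme2 and Mrpl54 starts 26 bases from Apba3. These distances are from GENCODE starts, which can differ from the RefSeq starts used for the promoter letters. Mrpl32, on the minus strand, starts at 14613165 in GENCODE and at 14613037 in the files.

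The promoter letters are shown because 3 factors, NRF1, GABP of the ETS family and YY1, are known regulators of nuclear genes for mitochondrial proteins. RefSeq windows from 250 bases before to 50 after the gene start (GRCm38.p6) were at hand for 69 of the genes and for 17492 genes in all. The letters CCGGAAG, the core bound by ETS factors, were found on either strand in 25 of the 69 windows (36.2%), against 11.9% of all windows. The YY1 letters AAGATGGC were found in 12 (17.4%, against 3.22%) and the NRF1 letters GCGCATGC in 8 (11.6%, against 3.61%). In contrast, GGGCGG (SP/KLF) was found in 49.3% against 46.3%, CCAAT in 39.1% against 39.0%, CACGTG (E-box) in 7.25% against 7.9% and TGACGTCA (CRE) in 2.9% against 2.34%. At least 1 of the ETS, YY1 and NRF1 strings was present in 37 windows, and at least 2 in 8. None of the strings contains another, although CCGGAAG can run into AAGATGGC. These are matches of letters, not measured binding. The 17492 windows were not limited to genes expressed here, and no relation of the letters to levels was tested. Below are the 90 bases before the start of 5 genes, 5′ to 3′ on the gene's strand, with matches of those 3 strings, on either strand, in capitals. Mrpl52 and Mrps18a are shown because the edgeR test below called them higher in polyploid cells. Neither call held after correction for transcript length. Mrpl54 and Mrps34, called as well, had no window. Mrpl22 is shown because it holds both an NRF1 and an ETS match. Mrpl32 is shown for its repeated NRF1 matches near Psma2, and Mrpl36 for a YY1 match. The 5 stretches lie, in the order printed, at chr14:54426819-54426908 (+), chr17:46110914-46111003 (+), chr11:58171574-58171663 (+), chr13:14613038-14613127 (-) and chr13:73330919-73331008 (+).
Mrpl52: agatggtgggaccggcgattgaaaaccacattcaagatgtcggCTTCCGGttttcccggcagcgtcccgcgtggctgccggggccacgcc
Mrps18a: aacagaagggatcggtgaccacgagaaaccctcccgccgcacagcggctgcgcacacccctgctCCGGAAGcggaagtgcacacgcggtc
Mrpl22: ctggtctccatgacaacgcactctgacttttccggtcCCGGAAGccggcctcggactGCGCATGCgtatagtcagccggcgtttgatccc
Mrpl32: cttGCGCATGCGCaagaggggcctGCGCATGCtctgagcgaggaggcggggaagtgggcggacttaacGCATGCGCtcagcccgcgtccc
Mrpl36: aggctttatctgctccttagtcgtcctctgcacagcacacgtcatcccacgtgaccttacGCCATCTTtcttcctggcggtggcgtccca

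A pair of the genes shares 1 promoter region. The pair is Mrpl46, a protein of the central protuberance, and Mrps11, a small-subunit protein. Their 90 bases before the RefSeq start, at chr7:78783090-78783179 (-) and chr7:78783041-78783130 (+), overlap by 41 bases on opposite strands. In GENCODE and in the files Mrpl46 extends to 78783531, so its stretch lies within that gene, and Mrps11 starts at 78783119. No match of the 3 strings lies in these stretches.
Mrpl46: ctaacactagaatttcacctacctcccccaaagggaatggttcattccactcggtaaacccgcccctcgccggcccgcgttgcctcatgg
Mrps11: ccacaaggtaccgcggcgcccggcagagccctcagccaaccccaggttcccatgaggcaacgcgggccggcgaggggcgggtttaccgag

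All 78 genes passed the filter on low counts, among 14061 genes tested. Per kb of the exon length in the files, Mrpl42 had the highest mean level over the 12 libraries with 166 CPM per kb. It was followed by Mrpl12, the L7/L12 stalk protein that recruits translation factors, with 127 CPM per kb, and Mrpl14, a protein at the interface between the subunits, with 123 CPM per kb. At the other end were Mrps25 with 2.61, Mrpl19 with 2.45 and Mrpl53 with 1.45 CPM per kb. Mrpl53 rested on as few as 13 counts in 1 library, and each of the other 77 on at least 190 counts in every library. Per kb of principal transcript the same 6 genes stood at the ends, but Mrpl14 was highest (181 CPM per kb), followed by Mrpl42 (166) and Mrpl12 (148).

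The summed level of the 78 genes gives the main pattern of the data. In young diploid libraries it was 3612, 2919 and 3446 CPM (mean 3326 ± 362, SD, n = 3), against young polyploid libraries at 5674, 4282 and 5217 CPM (5058 ± 710). In aged diploid libraries it was 2488, 1785 and 3302 CPM (2525 ± 759), and in aged polyploid libraries 3061, 2759 and 5938 CPM (3919 ± 1755). The young fractions did not overlap, whereas the aged fractions did: aged polyploid replicate 3 was the highest of all 12 libraries, and the other 2 aged polyploid libraries lay below aged diploid replicate 3. As a share of all counts, without TMM, the 78 genes made up 0.293 to 0.346% in young diploid, 0.386 to 0.477% in young polyploid, 0.283 to 0.321% in aged diploid and 0.297 to 0.497% in aged polyploid libraries. On this unscaled basis the aged diploid libraries were close together, and aged diploid replicate 2 no longer stood lowest.

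**Figure D1:**
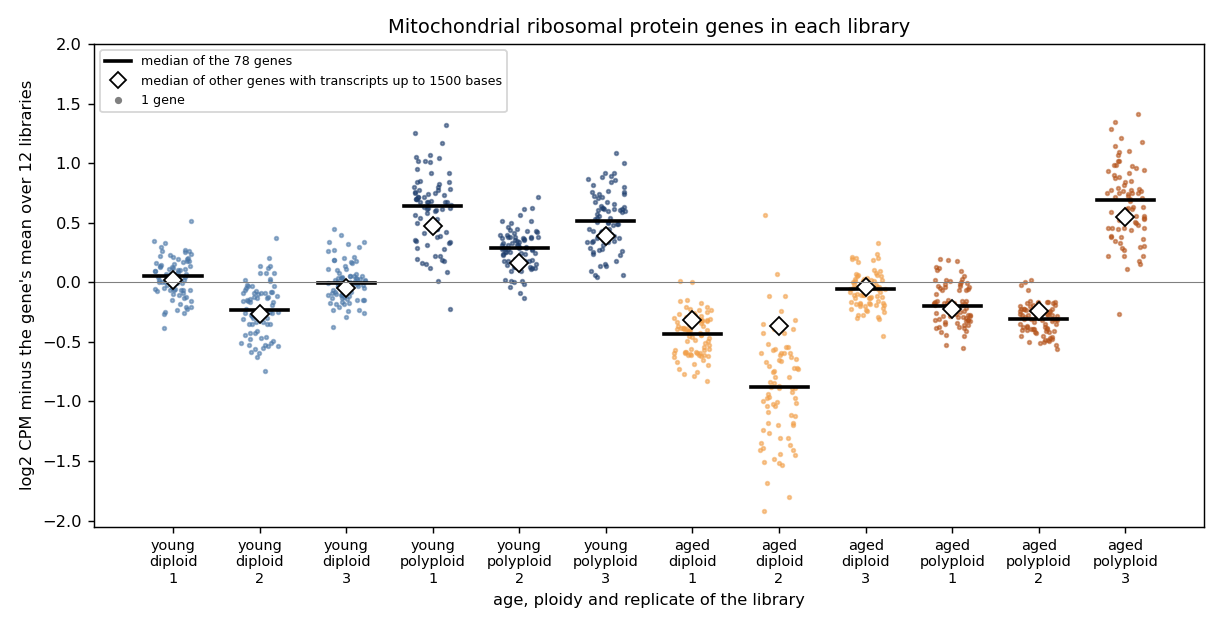
Each point is 1 of the 78 genes in 1 library, as log2 CPM (TMM-scaled) minus that gene's mean over the 12 libraries. Black lines are the medians of the 78 genes and white diamonds the medians of 1887 other protein-coding genes whose principal transcript is at most 1500 bases long. The 3 young polyploid libraries and aged polyploid replicate 3 stand highest, aged diploid replicate 2 lowest, and the diamonds move with the lines.

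On the TMM scale, polyploid hepatocytes had higher levels of nearly all of these genes than diploid hepatocytes, whereas scaling to the hepatocyte genes gave negative values for 57 of the 78. Averaged over both ages, 77 of the 78 genes had a positive log2 fold change, with a median of 0.54 against -0.06 over all tested genes and -0.04 over the 9096 tested protein-coding genes of like exon length (869.1 to 6602.9 bases, the range between the 10th and 90th percentile of the 78 genes), a direction that turned to a median of -0.19 when libraries were scaled to the hepatocyte genes. Under that scaling the median of all genes moved to -0.85, so that the 78 genes stood 0.66 above it. In aged diploid replicate 2 the hepatocyte genes summed to 29050 CPM, beside 1785 CPM for the 78 genes. In aged diploid replicates 1 and 3 they summed to 141400 and 195500 CPM, beside 2488 and 3302 CPM. The hepatocyte scaling was not repeated without replicate 2, so the directions it gave cannot be told apart from the effect of that library. Without scaling factors the median of all genes was -0.33 and the 78 genes stood 0.59 above it, with 70 of 78 positive. The large subunit had a median of 0.61 (51 genes) and the small subunit 0.51 (26 genes), and proteins with a bacterial homologue had 0.61 (48 genes) against 0.51 for the mitochondria-specific ones (29 genes).

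**Figure D2:**
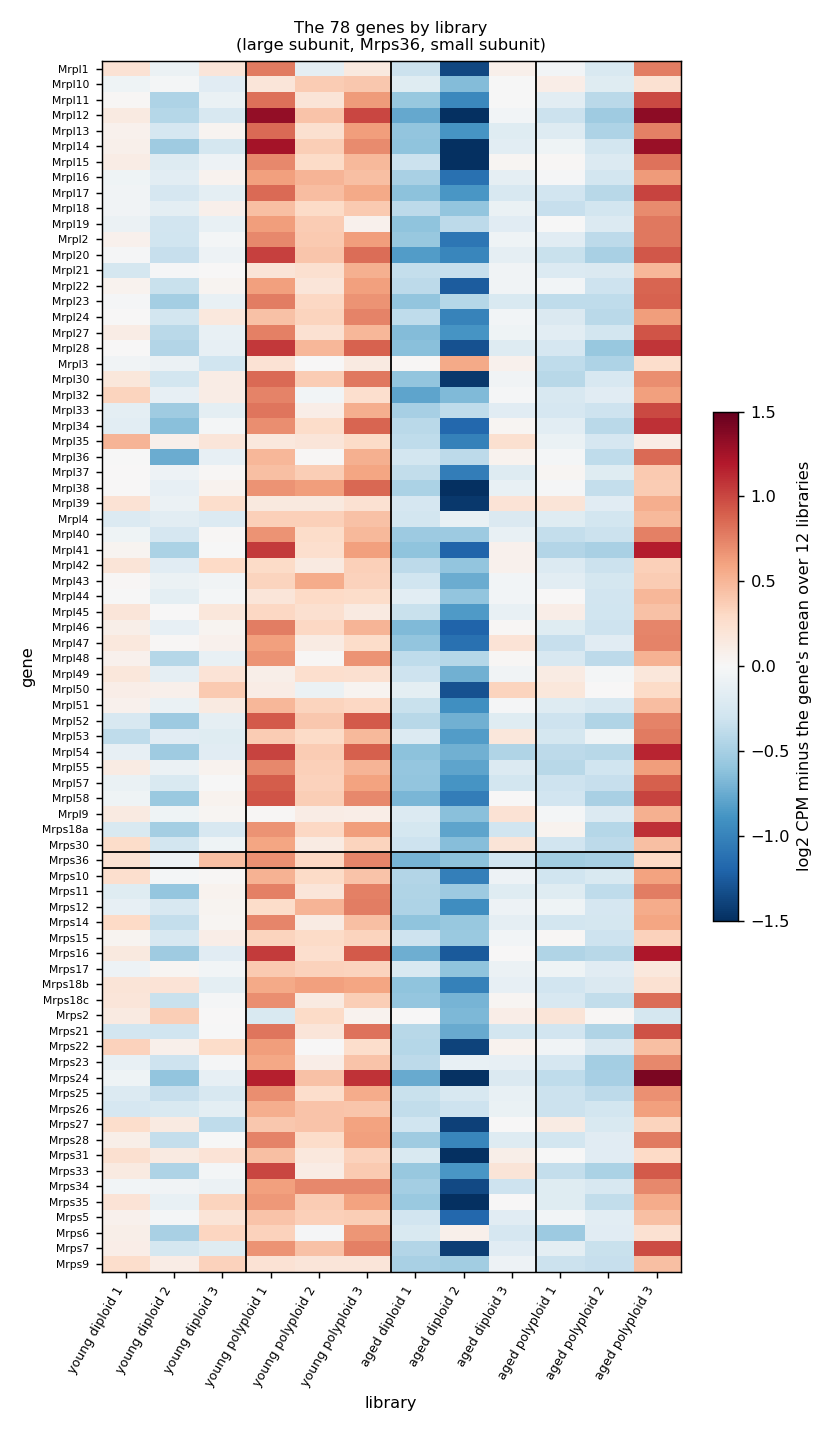
Heat map of log2 CPM minus each gene's mean over the 12 libraries for the 78 genes (rows, large subunit above, Mrps36, then small subunit), by library (columns, replicates 1 to 3 within each group), with red above and blue below the gene's mean. The young polyploid libraries and aged polyploid replicate 3 are red for most genes, aged diploid replicate 2 is blue for most, and Mrpl3 and Mrps6 are exceptions there.

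In the quasi-likelihood test of edgeR, with p adjusted by Benjamini-Hochberg over all 14061 genes (threshold 0.05), 4 of the 78 genes rose in polyploid cells over both ages. In that comparison 8.67% of all genes passed in either direction and 0.882% passed as higher. The 4 genes were Mrpl54, Mrps34, Mrpl52 and Mrps18a. An unadjusted p under 0.05 was reached in the upward direction by 51 of the 78 genes, against 11.1% of all genes. DESeq2 called 28 of the 78 higher, among them the 4, against 5.26% of all genes.

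Mrpl54 encodes a mitochondria-specific protein near the stalk of the large subunit (chromosome 10, 81264713 to 81266934, minus strand, GRCm38). It was measured at 32.3, 24.1 and 31.2 CPM in diploid and 71.6, 45.8 and 65.7 CPM in polyploid libraries of young mice, and at 22.7, 21.1 and 25.6 CPM in aged diploid and 26.8, 26.3 and 78.5 CPM in aged polyploid libraries. Polyploid libraries lay above all diploid libraries of the same age, by little in 2 of the aged mice. The log2 fold change over both ages was 0.99 (SE 0.27, adjusted p 0.0421, edgeR).

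Mrps34 encodes a mitochondria-specific protein that stabilises the small subunit (chromosome 17, 24895116 to 24897502, plus strand). Its levels were 21.6, 21.6 and 20.9 CPM in diploid and 34.4, 37.1 and 37.1 CPM in polyploid libraries of young mice. In aged mice they were 15.6, 8.47 and 17.9 CPM in diploid and 19.7, 18.9 and 37.1 CPM in polyploid libraries. The fractions did not overlap at either age, and the young libraries were tight. The log2 fold change over both ages was 0.80 (SE 0.22, adjusted p 0.0421, edgeR). Mrps34 overlaps Nme3 and Mapk8ip3, 1 of them on its own strand, and reads of overlapping genes may have been split or shared.

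Mrpl52, a mitochondria-specific protein of the large subunit (chromosome 14, 54426909 to 54429756, plus strand), has the shortest principal transcript of the 78 genes, 418 bases. It stood at 32.8, 26.3 and 35.2 CPM in diploid and 73.6, 51.2 and 73.6 CPM in polyploid libraries of young mice. In aged mice it stood at 29.0, 23.3 and 34.1 CPM in diploid and 31.2, 28.2 and 65.2 CPM in polyploid libraries, where the 2 fractions overlapped. The log2 fold change over both ages was 0.80 (SE 0.23, adjusted p 0.0485, edgeR).

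Mrps18a is 1 of 3 mammalian relatives of the bacterial S18 gene and encodes a large-subunit protein (chromosome 17, 46110986 to 46128910, plus strand, overlapping Rsph9 on the other strand). It stood at 37.6, 30.9 and 37.3 CPM in diploid libraries of young mice and 70.5, 54.8 and 68.1 CPM in their polyploid libraries, and at 36.7, 25.2 and 35.9 CPM in diploid and 45.9, 32.8 and 94.8 CPM in polyploid libraries of aged mice. The young fractions were apart and the aged ones overlapped. The log2 fold change over both ages was 0.85 (SE 0.24, adjusted p 0.0491, edgeR). Its small-subunit relatives Mrps18b and Mrps18c did not pass, with log2 fold changes of 0.49 (SE 0.18, adjusted p 0.103) and 0.52 (SE 0.24, adjusted p 0.179).

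None of these 4 calls held when aged diploid replicates 1 and 2 were removed, with log2 fold changes of 0.91 for Mrpl54, 0.62 for Mrps34, 0.67 for Mrpl52 and 0.77 for Mrps18a and a median of 0.38 over the 78 genes. In that fit the lone aged diploid library is assumed to vary like the other groups. The count of calls was 0 to 46 when single libraries were left out: 46 genes passed when aged diploid replicate 3 was left out (8.04% of all genes as higher), 18 when aged polyploid replicate 2 was (2.73%), and 0 or 1 in each of the other 10 cases.

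Since both fractions came from the same mice, the fit was repeated with the mouse as a block. In that fit 50 of the 78 genes passed as higher in polyploid cells over both ages, the 4 above among them, against 8.9% of all genes. Blocking kept the size of the differences, with a median of 0.51, and narrowed their errors. Within single mice, the median difference over the 78 genes, polyploid minus diploid on the log2 scale, was 0.57, 0.51 and 0.58 in the 3 young mice and 0.28, 0.56 and 0.73 in the 3 aged mice. Between 72 and 75 of the 78 genes were higher in the polyploid fraction of each mouse. In all 6 mice this held for 62 of the 78 genes, against 14.4% of all tested genes. Mrpl50 and Mrps2 were higher in 3 of the 6 mice, the fewest of the 78 genes.

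The members at the upper end were not those with the smallest p. Mrps24, a protein at the entry of the messenger RNA channel, stood at 84.4, 58.3 and 81.2 CPM in diploid and 199, 120 and 188 CPM in polyploid libraries of young mice. In aged mice it stood at 52.2, 31.3 and 76.1 CPM in diploid and 67.8, 62.1 and 235 CPM in polyploid libraries. The young fractions were apart, and aged diploid replicate 3 lay above 2 of the aged polyploid libraries. Its log2 fold change over both ages was 1.19 (SE 0.35, adjusted p 0.0588), and 1.08 (SE 0.18, adjusted p 0.00552) in the blocked fit.

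Mrpl12, the stalk protein, has also been reported to bind the mitochondrial RNA polymerase. It stood at 178, 120 and 137 CPM in diploid and 405, 218 and 324 CPM in polyploid libraries of young mice. In aged mice it stood at 94.7, 42.5 and 158 CPM in diploid and 130, 112 and 411 CPM in polyploid libraries. The young fractions were apart, and aged diploid replicate 3 again lay above 2 of the aged polyploid libraries. Its log2 fold change over both ages was 1.14 (SE 0.39, adjusted p 0.0871), and 1.09 (SE 0.19, adjusted p 0.0058) with the block. Besides Mrpl54, which passed (0.99, above), the other genes of the stalk gave 0.75 (SE 0.26, adjusted p 0.0938) for Mrpl11, 0.36 (SE 0.15, adjusted p 0.14) for Mrpl10, which anchors the Mrpl12 copies, and 0.78 (SE 0.38, adjusted p 0.194) for the lowly expressed Mrpl53.

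**Figure D3:**
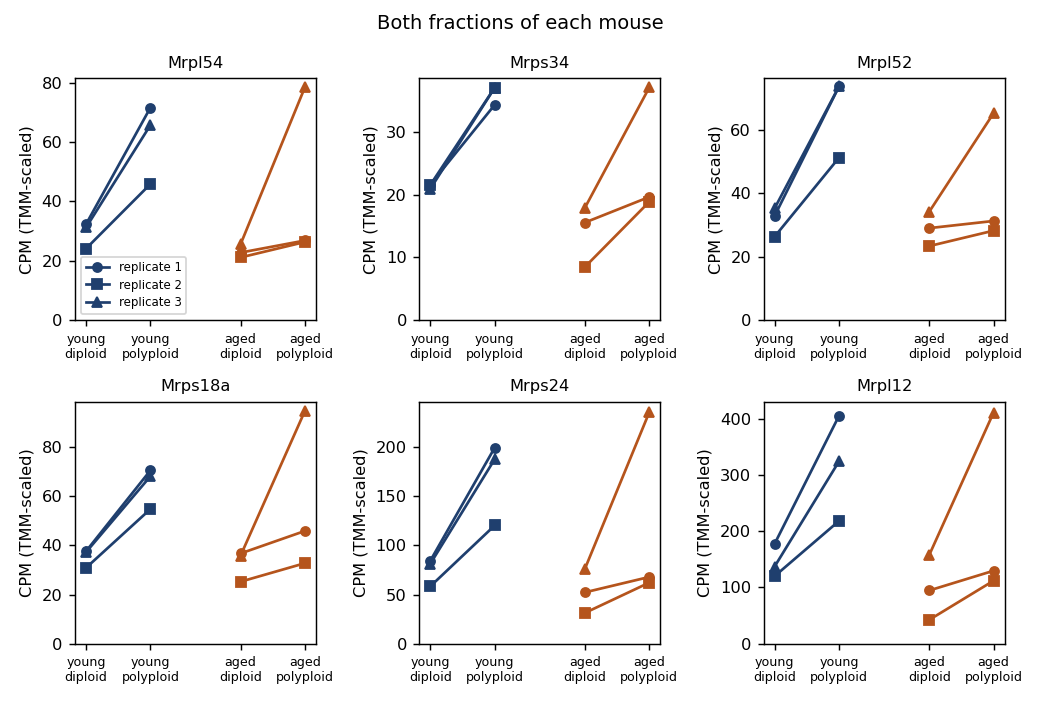
Level (CPM, TMM-scaled) of 6 of the genes in the diploid and polyploid fraction of each mouse, with a line joining the fractions of 1 mouse. All 6 genes are higher in the polyploid fraction of all 6 mice, and aged mouse 3 has the highest polyploid value among the aged mice for each.

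Over the 5 genes assigned here to the surroundings of the catalytic centre (Mrpl2, Mrpl3, Mrpl4, Mrpl16 and Mrpl27), the median was 0.65, with 1 exception. Mrpl3, which lies beside the peptidyl transferase centre, had a log2 fold change of -0.06 (SE 0.17, adjusted p 0.833), the only negative value among the 78 genes. It stood at 23.3, 22.7 and 19.6 CPM in diploid libraries of young mice and 28.2, 24.4 and 26.7 CPM in their polyploid libraries, and at 24.4, 36.0 and 25.2 CPM in diploid and 18.5, 17.4 and 29.2 CPM in polyploid libraries of aged mice. Its highest value was in aged diploid replicate 2, the library with the fewest hepatocyte counts, where the 78 genes had their lowest median deviation from their means (-0.90). With aged diploid replicates 1 and 2 removed the log2 fold change of Mrpl3 was 0.02. Mrpl3 overlaps Gm38077 and Gm47106. At the exit tunnel, Mrpl45, which ties the ribosome to the inner membrane, had a log2 fold change of 0.31 (SE 0.17, adjusted p 0.244). The median over the 6 genes assigned here to the exit tunnel, Mrpl4 not among them, was 0.59. Mrpl58, a peptidyl-tRNA hydrolase that rescues stalled ribosomes and is itself a ribosomal protein, had 0.82 (SE 0.29, adjusted p 0.093). In the small subunit, the 4 genes for the decoding site and messenger RNA path had a median of 0.71, among them Mrps12 with 0.61 (SE 0.20, adjusted p 0.0748). Besides Mrpl3, the smallest values were those of Mrps2 (0.01, SE 0.18) and Mrpl35 (0.08, SE 0.20). Mrps30 gave 0.29 (SE 0.21, adjusted p 0.377) and Mrps36 0.36 (SE 0.19, adjusted p 0.231).

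The 2 ages were also taken apart. In young mice, 74 of the 78 genes had a positive log2 fold change (median 0.56, all genes -0.06) and 67 did without scaling factors and 66 with scaling to the hepatocyte genes. The 3 polyploid libraries lay above the 3 diploid ones for 57 of the 78, against 16.8% of all genes. None passed the adjusted threshold in edgeR, where 0% of all genes did, and none in DESeq2, where 0.541% did. An unadjusted p under 0.05 was reached upward by 19 of the 78, against 5.22% of all genes. The 3 most positive were Mrps24 (1.18, SE 0.50), Mrpl12 (1.12, SE 0.55) and Mrpl52 (1.07, SE 0.32), each with adjusted p between 0.393 and 0.407. A fit to the young libraries alone called 29 of the 78 genes higher, against 5.49% of all genes. The most negative were Mrpl50 (-0.17, SE 0.33), Mrps2 (-0.12, SE 0.25) and Mrpl35 (-0.06, SE 0.28).

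In aged mice, 76 of the 78 genes had a positive log2 fold change, with a median of 0.58 (all genes 0.02). It turned to -0.67 with scaling to the hepatocyte genes, where the median of all genes was -1.42. That scaling was not repeated without aged diploid replicate 2. Aged fractions did not overlap, with the polyploid libraries higher, for 5 of the 78, against 6.35% of all genes. None passed in edgeR, where 9.69% of all genes did, and none in DESeq2, where 13.1% did. An unadjusted p under 0.05 was reached upward by 15 of the 78 genes, against 4.17% of all genes. With the mouse as a block 16 of the 78 genes passed as higher, against 3.51% of all genes, and all 16 also passed over both ages with the block. Mrpl14 was highest, with a log2 fold change of 1.21 (SE 0.48, adjusted p 0.174) and with the block 1.19 (SE 0.25, adjusted p 0.0153). Its levels were 65.6, 28.4 and 89.7 CPM in aged diploid and 96.1, 83.0 and 246 CPM in aged polyploid libraries. The lowest values were those of Mrpl3 (-0.40, SE 0.24), Mrps6 (0.00, SE 0.30) and Mrps2 (0.14, SE 0.25). The median was 0.21 without aged polyploid replicate 3, and 0.20 without aged diploid replicates 1 and 2. Without aged diploid replicate 3, 11 of the 78 genes passed as higher, against 3.79% of all genes.

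**Figure D4:**
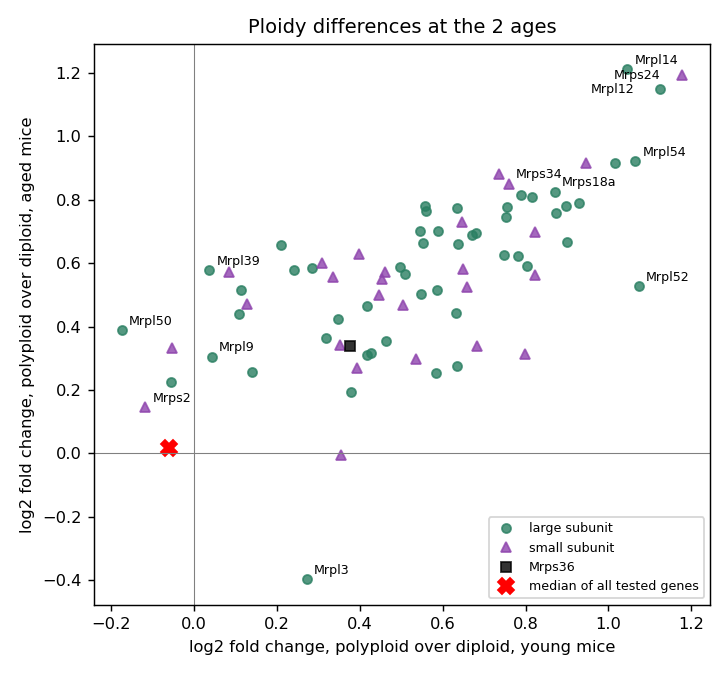
Log2 fold change of polyploid over diploid cells in young (horizontal) and aged mice (vertical) for each of the 78 genes, by subunit, with the median of all tested genes as a red cross. For 72 of the 78 genes both values are above 0, and Mrpl14, Mrps24 and Mrpl12 are at the upper right; under scaling to the hepatocyte genes the aged values are negative for 75 of the 78.

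Both ploidy differences had the same sign, upward, for 72 of the 78 genes, as they did for 32.39% of all tested genes. The interaction of age and ploidy tests whether they differ. Its median over the 78 genes was 0.02 with 42 positive and 36 negative values, and no gene passed in edgeR, where 0% of all genes did, or in DESeq2, where 3.48% did. None reached an unadjusted p under 0.05, against 11% of all genes. The extreme values were 0.56 (SE 0.46) for Mrpl50, 0.54 (SE 0.49) for Mrpl39 and 0.49 (SE 0.48) for Mrps22, and -0.67 (SE 0.35) for Mrpl3, -0.54 (SE 0.45) for Mrpl52 and -0.49 (SE 0.41) for Mrps25, none beyond 2 of its standard errors. These values moved with scaling and with single libraries. The median was -1.02 with all 78 negative under scaling to the hepatocyte genes and -0.18 with 58 negative without scaling factors, where the medians of all genes were -1.22 and -0.22. It was -0.31 with 73 negative when aged diploid replicates 1 and 2 were removed, -0.40 without aged polyploid replicate 3 and 0.32 with 68 positive without aged diploid replicate 3.

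On the TMM scale, aged diploid cells had lower values of most of these genes than young diploid cells, without any gene passing the test, and scaling to the hepatocyte genes gave higher values. The log2 fold change was negative for 74 of the 78 genes, with a median of -0.41 against 0.09 over all tested genes and 0.05 over genes of like exon length, and the median turned to 0.75, with all 78 positive, when scaled to the hepatocyte genes, where the median of all genes was 1.49. Without scaling factors 49 of the 78 were negative, and the 78 genes stood 0.58 below the median of all genes. The hepatocyte scaling was not repeated without aged diploid replicate 2, which held 29050 CPM of the hepatocyte genes. In edgeR 0 of the 78 passed while 3.93% of all genes did, and in DESeq2 0 passed while 11.7% did. An unadjusted p under 0.05 was reached downward by 3 of the 78, against 2.88% of all genes, and the libraries did not overlap, with aged lower, for 12 of the 78, against 7.57% of all genes. The median was -0.04 with aged diploid replicates 1 and 2 removed. Without aged diploid replicate 3, 6 of the 78 genes passed as lower, against 2.31% of all genes.

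Mrps36 had the most negative value. It stood at 25.9, 20.9 and 30.2 CPM in young diploid and 13.4, 14.2 and 17.8 CPM in aged diploid libraries, with no overlap, and its log2 fold change was -0.76 (SE 0.27, adjusted p 0.129). In polyploid cells it stood at 35.7, 27.4 and 37.0 CPM in young and 15.1, 15.4 and 27.1 CPM in aged libraries, again with no overlap, and its log2 fold change was -0.80 (SE 0.27, adjusted p 0.43). The annotation lists 3 pseudogenes of the same name, so reads may have been assigned between copies. Next in diploid cells were Mrps35 (-0.73, SE 0.36, adjusted p 0.297) and Mrps22 (-0.72, SE 0.34, adjusted p 0.268), both mitochondria-specific small-subunit proteins. Mrpl3 (0.38, SE 0.24), Mrpl36 (0.07, SE 0.33) and Mrps25 (0.04, SE 0.29) were the most positive.

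In polyploid cells, which held few counts of other cell types at either age, 75 of the 78 genes had a negative log2 fold change with age. The median was -0.37, against 0.05 over all genes and 0.00 over those of like exon length, and 71 were negative both with scaling to the hepatocyte genes and without scaling factors. In edgeR 0 of the 78 passed, as did 0.0356% of all genes, and in DESeq2 0 passed against 1.08% of all genes. An unadjusted p under 0.05 was reached downward by 2 of the 78, against 2.29% of all genes, and the libraries did not overlap, with aged lower, for 6 of the 78, against 6.82% of all genes. After Mrps36 the most negative were Mrpl38, a protein of the central protuberance (-0.69, SE 0.32, adjusted p 0.545), and Mrps18b (-0.68, SE 0.25, adjusted p 0.468). Mrps18b stood at 44.5, 46.1 and 45.1 CPM in young and 24.3, 25.5 and 34.9 CPM in aged polyploid libraries, the young values being nearly equal. Mrpl50 (0.13, SE 0.33), Mrpl9 (0.06, SE 0.25) and Mrpl39 (0.05, SE 0.35) were positive. Aged polyploid replicate 3 held levels like those of young polyploid libraries, and the median was -0.78 without it. Without aged polyploid replicate 2 the median was -0.20, with 69 negative. Both fractions had a negative value for 71 of the 78 genes, as for 25.56% of all tested genes. The fractions come from the same 6 mice, so the aging comparisons are not independent of each other, and each shares its libraries with the ploidy comparisons.

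The length of the transcripts moved with these differences. The principal transcripts of the 78 genes had a median of 1302 bases (418 to 7300), against 2583 bases over protein-coding genes. Among other protein-coding genes the log2 fold change over both ages was higher the shorter the transcript: the median was 0.57 for 728 genes of up to 1000 bases, 0.30 for 1159 genes of over 1000 and up to 1500, 0.05 for 2913 genes of over 1500 and up to 2500 and -0.26 for 7318 longer genes. In the same classes the mitochondrial ribosomal protein genes had medians of 0.70 (25 genes), 0.53 (22 genes), 0.30 (10 genes) and 0.47 (21 genes). They thus stood 18 of 25, 21 of 22, 9 of 10 and 21 of 21 above the median of other genes of their class. The gap between the medians was 0.14 in the shortest class and 0.73 in the longest. The exon length in the files had a median of 2068 bases for the 78 genes and 3231 over protein-coding genes. It was below the principal transcript length for 11 of the 78 genes, 5 of them in the longest class, and for 8.6% of other genes, so the transcript length is not always the length over which reads were counted. With classes set by the shorter of the 2 lengths, chosen after these values had been seen, 17 members were over 2500 bases, all of them above the median of the others (0.47 against -0.27).

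**Figure D5:**
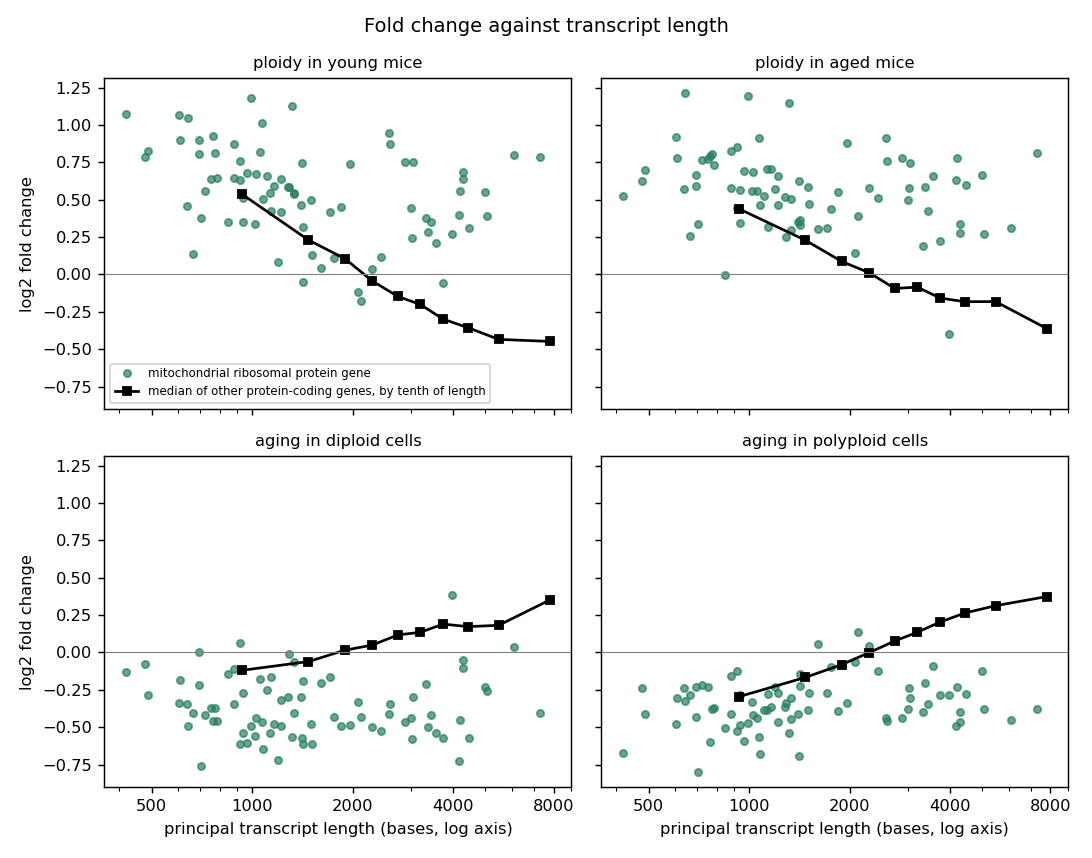
Log2 fold change against the length of the principal transcript (log axis) for the 78 genes (points) and for other protein-coding genes (squares, medians of 10 classes of equal size by length), in 4 comparisons. The squares run downward with length for ploidy and upward for age, and long members lie away from them; under scaling to the hepatocyte genes all values shift, and the medians of the 78 genes change sign for ploidy in aged mice and for aging in diploid cells.

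The values by age and for aging were as follows in the longest and shortest classes. For transcripts over 2500 bases, the members' median for ploidy was 0.45 in young mice (others -0.32) and 0.58 in aged mice (others -0.18), and for aging it was -0.41 in diploid cells (others 0.20) and -0.38 in polyploid cells (others 0.23). For transcripts of up to 1000 bases the values were 0.76 against 0.62, 0.69 against 0.51, -0.35 against -0.15 and -0.38 against -0.33. By library, the 20% of all tested genes with the shortest exon length in the files had a median deviation of 0.66 in aged polyploid replicate 3. It was -0.44 in aged diploid replicate 2. The 78 genes, which were not left out of that set, had 0.70 and -0.90 in these libraries.

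A smooth correction (loess) of each library for principal transcript length, chosen after these values had been seen, left smaller medians. The ploidy medians were 0.20 across the 2 ages together, 0.25 in the aged and 0.18 in the young, and the aging medians were -0.28 in diploid and -0.17 in polyploid cells, where 59 of the 78 genes were negative. None of the 78 passed in these comparisons after it. After the correction the libraries' median deviation of the 78 genes was 0.18, 0.16 and 0.18 in young polyploid and 0.03, -0.03 and 0.06 in young diploid libraries, still apart. It was -0.05, -0.13 and 0.16 in aged polyploid and -0.10, -0.59 and -0.04 in aged diploid libraries, which overlapped. None of the 4 genes called over both ages passed after the correction, with or without the block, and Mrpl52 had a value of -0.056 without and -0.059 with the block.

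With both the length correction and the mouse as a block, 23 of the 78 genes rose in polyploid cells over both ages, against 4.63% of all genes, and 17 of them were also among the 50 called with the block alone. They were 14 genes of the large and 9 of the small subunit, with principal transcripts from 995 to 7300 bases. Mrpl11, in the stalk base, had a log2 fold change of 0.79 (SE 0.13, adjusted p 0.00602). Mrpl58 had 0.78 (SE 0.13, adjusted p 0.00719) and Mrpl17, at the exit tunnel, 1.01 (SE 0.17, adjusted p 0.00772). With the block alone Mrpl11 had 0.70, Mrpl58 0.77 and Mrpl17 0.73, so the correction raised the value of Mrpl17, whose annotated principal transcript has 7300 bases. Whether the annotated principal transcripts are those expressed was not tested. Mrpl17 stood at 81.9, 71.1 and 76.9 CPM in diploid libraries of young mice and 153, 117 and 126 CPM in their polyploid libraries, and at 55.2, 46.1 and 72.0 CPM in diploid and 69.4, 63.3 and 172 CPM in polyploid libraries of aged mice, apart in young mice and overlapping in aged mice. Mrpl12 (0.75, SE 0.17, adjusted p 0.0237) and Mrps24 (0.62, SE 0.14, adjusted p 0.0259) also passed, with values below the 1.09 and 1.08 of the block alone. Mrpl17 was chosen for naming after its values were seen. In aged mice alone 7 of the 78 passed in this way, against 2.3% of all genes. When the shorter of exon and transcript length was used in place of the transcript length, 20 of the 78 passed over both ages (4.55% of all genes as higher), all among the 23, and 5 in aged mice (2.26%). Mrpl32, Mrps16 and Mrps30, whose exon length in the files is below their principal transcript, no longer passed, with -0.19 (SE 0.12, adjusted p 0.312), 0.15 (SE 0.12, adjusted p 0.435) and 0.06 (SE 0.10, adjusted p 0.716).

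The 5 mitochondrial ribosomal proteins with other names were set beside the 78 genes. Over both ages Gadd45gip1, a large-subunit protein, had a log2 fold change of 1.08 (SE 0.33, adjusted p 0.0654), Chchd1 0.99 (SE 0.34, adjusted p 0.0868), Aurkaip1 0.77 (SE 0.25, adjusted p 0.0802), Dap3, a GTP-binding protein of the small subunit, 0.41 (SE 0.20, adjusted p 0.198) and Ptcd3 -0.29 (SE 0.18, adjusted p 0.308). None of the 5 passed, and Gadd45gip1, Chchd1 and Aurkaip1 did with the block. Ptcd3, a small-subunit protein with RNA-binding repeats, had values of opposite sign at the 2 ages, with -0.71 (SE 0.26) in young and 0.14 (SE 0.26) in aged mice, and its interaction did not pass (0.85, SE 0.37, adjusted p 0.42).

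Genes that act with the mitochondrial ribosome had smaller medians. None of the lists below, the regulators included, was matched for transcript length, with which the fold changes moved. Over both ages none passed in edgeR among 12 translation factors (median 0.18, 7 positive), 24 assembly and RNA modification factors (0.28, 18 positive), 20 mitochondrial tRNA synthetases and partners (0.22, 14 positive) or 10 genes for copying and transcribing mitochondrial DNA (0.28, 8 positive), against 8.67% of all genes. With the block 1, 7, 4 and 1 of them passed as higher, where 8.9% of all genes did. The smallest p in these lists belonged to Tsfm, the elongation factor Ts of mitochondria (0.38, SE 0.15, adjusted p 0.121), the assembly factor Mpv17l2 (0.57, SE 0.19, adjusted p 0.0808), the cysteinyl-tRNA synthetase Cars2 (0.51, SE 0.16, adjusted p 0.0677) and Slirp, which stabilises mitochondrial messengers (0.57, SE 0.24, adjusted p 0.144). Malsu1, which binds Mrpl14 and keeps the subunits apart during assembly, had 0.79 (SE 0.27, adjusted p 0.0891) and was named after its values were seen, for its tie to Mrpl14. The 13 protein genes of mitochondrial DNA, which the mitochondrial ribosome translates, had a median of 0.30 with 12 positive, and none passed with or without the block. Of these mt-Co3, a subunit of cytochrome c oxidase, had 0.95 (SE 0.40, adjusted p 0.143). Among 9 nuclear regulators, including Nrf1 and Gabpa, the median was -0.39 with 7 negative. Nrf1 had -0.50 (SE 0.23, adjusted p 0.173) and Gabpb1, the partner subunit of Gabpa, -0.39 (SE 0.19, adjusted p 0.198). With the block, Myc and Pprc1 passed as lower, 2 of 9 where 15.2% of all genes did.

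The 18 genes that face a member across a shared promoter region had a median of 0.14, with 11 positive, against 0.53 for the 18 members they face. These sets were not matched for transcript length. Members overlapping another gene had a median of 0.53 (42 genes) and those overlapping none 0.54 (36 genes). The members of the pair that shares a promoter region had similar values, with 0.62 (SE 0.24) for Mrpl46 and 0.69 (SE 0.23) for Mrps11, and neither passed without the block. These genes were named for their position.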

How the data were processed

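RNA of 12 sorted hepatocyte libraries, 3 per group as assigned from the labels, was measured with a SMART-Seq v4 low-input kit. Each library's deposited file holds whole-number counts for 49315 gene IDs, per the file headers. According to the submitters' processing notes the tools were Trimmomatic 0.36 (trimming), STAR 2.5.2b (alignment, GRCm38) and featureCounts from Subread 1.5.2 (counting). The sources used here do not give the annotation release, the strand setting or whether reads or fragments were counted, so reads of overlapping and antisense genes cannot be told apart. IDs were named through GENCODE M21, where 49056 matched and 259 did not (0.00803% of counts), and principal transcripts are those its APPRIS tags mark.

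Differences were tested in R 4.3.3 with edgeR 4.0.16 (filterByExpr, TMM, quasi-likelihood F test, 1 mean per group over all 12 libraries, 6 contrasts), adjusted by Benjamini-Hochberg over 14061 genes at 0.05, with each SE taken from the fold change and F. The script was tested on simulated data for the comparisons at a single age or in a single fraction. Of genes changed 2-fold it called 0 to 2.04%, and of those changed 4-fold 35.4 to 50.5%. A count of 0 passing genes in these comparisons therefore does not show that levels were unchanged. Alternatives were DESeq2 1.42.0, other scalings and filters, length corrections, the mouse as a block (for aging, the replicate number alone), and left-out libraries. The corrections on transcript length and on the shorter of exon and transcript length were added after seeing the data. Same-numbered libraries deviated together: r over 8849 genes was 0.444, 0.601 and 0.377 for the young pairs and 0.441, 0.5 and 0.492 for the aged pairs, the highest value for every library being the one with its own number. The series design gives 3 mice per age for both fractions, so a number was taken as a mouse within an age.

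Named genes were, per comparison, the members that pass (up to 12), the 3 most positive and the 3 most negative, and, in any comparison, the 3 highest and 3 lowest per kb, Mrpl10, Mrpl11, Mrpl12, Mrpl45, Mrpl58, Mrps12, the S18 family, Mrps30 and Mrps36, with up to 2 genes by p of each other list and all 5 proteins with other names. The members and lists were chosen with earlier results of these data known. P-values of the fits without a block treat the 12 libraries as independent, although each mouse gave a library of each fraction. In the ploidy comparisons with the mouse as a block they measure the spread of within-mouse differences. Sums over 10 lymphocyte and 6 bile duct markers reached 226 and 397 CPM in aged diploid libraries, and at most 3.16 and 86.1 CPM in the others.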

Additional observations from a re-analysis of the deposited data

How the results depend on the processing

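Of the 6 medians, that for ploidy in young mice and that for aging in polyploid cells kept their sign under all alternatives tried. With scaling to the hepatocyte genes the medians were 0.75 (aging, diploid), -0.67 (ploidy, aged), -0.19 (ploidy, both ages) and -1.02 (interaction), where the medians of all genes were 1.49, -1.42, -0.85 and -1.22. Each of these comparisons includes aged diploid replicate 2, with 29050 CPM of hepatocyte genes, and that scaling was not repeated without it. On the TMM scale with aged diploid replicates 1 and 2 removed, the medians were -0.035 for aging in diploid cells, 0.20 for ploidy in aged mice and -0.31 for the interaction. The transcript length correction gave 0.18 (young) and, as in aged mice (0.25), over both ages (0.20) and for aging (-0.28 diploid, -0.17 polyploid), values nearer 0. With the replicate block it gave 0.17 in young mice. Correction on the shorter of exon and transcript length, added after seeing the data, gave 0.16 (young), 0.18 (aged) and 0.17 (both ages), and 0.16 in young mice with the replicate block. Leaving out 1 library gave -0.78 to -0.20 for aging in polyploid cells, 0.21 to 0.91 for ploidy in aged mice and -0.40 to 0.32 for the interaction, the extremes at -0.78, 0.21 and -0.40 without aged polyploid replicate 3.

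The count of genes called over both ages (4) was 0 without scaling factors, with hepatocyte scaling, with aged diploid replicates 1 and 2 removed and with the transcript length correction. It was 1 with a mean CPM of at least 5, where 81 of all 9084 tested genes were called higher. It was 2 with the exon length correction (115 of 14061), 22 without a filter (505 of 27518) and 28 in DESeq2 (740 of 14061). The replicate block gave 50, with the transcript length correction 23, and with the shorter length 20; the shorter length alone gave 0. Leaving out 1 library gave 0 to 46. For ploidy in aged mice (0) it was 16 with the replicate block, 7 with the block and the transcript length correction, 5 with the block and the shorter length, and 0 to 11 with 1 library left out. For aging in diploid cells (0) it was 0 to 6 with 1 library left out, and for ploidy in young mice (0) it was 29 in a fit to the groups compared. The replicate block changed no call of the 78 genes in young mice, in aging or in the interaction. For aging the block was the replicate number alone, which different young and aged mice share, so it is no paired check of aging. Values were recomputed for 40 pairs of a named gene and a comparison, of which 4 had passed: Mrpl54, Mrps34, Mrpl52 and Mrps18a over both ages. Of these values, 598 stayed on their side of the threshold (a change of sign in a value that had not passed is not counted), 26 came to pass, 36 no longer passed and 4 turned. Most of the 598 were of pairs that had not passed, and all 36 that no longer passed were of the 4 calls. All values that turned were of Mrpl52 over both ages. It was -0.056 with the transcript length correction and -0.059 with the replicate block added, and -0.067 and -0.07 with the shorter length. The cause of these changes was not tested. At 13 counts in its lowest library, Mrpl53 is limited by depth.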
